A study of Homo sapiens with 10 samples.

Results

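The cytokines that signal through gp130 were followed in neurospheres treated with phthalate esters, as 9 genes: the ligands IL11, IL6, LIF and CLCF1, the receptor chains IL6ST, LIFR and OSMR, the transcription factor STAT3 and its feedback inhibitor SOCS3. They were taken by gene symbol from a count table of 46427 genes, of which 19465 entered the tests, and 8 of the 9 were among those. IL6 was not, since it had no count in any library. The 9 genes were chosen by name with results of these data already known, and which values chose them is not recorded. Their levels and differences are therefore a description, with no p-value, and support nothing beyond themselves.

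The cells were ReNcell VM, a human neural progenitor line made immortal and used in place of primary progenitors. Its neurospheres differentiated for 6 days on laminin in medium with N-2 supplement, in the presence of vehicle (0.1% DMSO), DEP (diethyl phthalate), DProP, DPP or Mix, each of the last 4 at 100 µM. All groups are of this line only, and each has 2 libraries with 6 neurospheres pooled in each. Whether the paired libraries are separate cultures is not stated, so spreads and p-values refer to these libraries. DProP usually stands for di-n-propyl phthalate. DPP abbreviates more than 1 phthalate, so that no structure is given for it, and what Mix contains is not stated in the labels. Nor do they state whether the dose of Mix is its total or that of each compound in it. The study concerns the developmental neurotoxicity of short-chain phthalates and of their mixtures.

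Cytokines of the interleukin 6 family bind a ligand-specific receptor chain and then engage gp130, the shared signal transducer that IL6ST encodes. Receptor assembly activates Janus kinases, which phosphorylate STAT3, and STAT3 in the nucleus switches on target genes, SOCS3 among them, whose product shuts the receptor off. In neural progenitors, LIF and its relatives are known for keeping cells in the progenitor state and for driving astrocyte formation. RNA levels do not show whether STAT3 was phosphorylated.

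The gene with the widest span of levels was IL11, and the sequence before its start is shown because IL11 and genes of the AP-1 factors FOS and JUN both appear in the results. IL11 lies on chromosome 19 at 55364382 to 55370463 (GRCh38). The 250 bases before its start, chr19:55370464-55370713 on the minus strand of GRCh38.p14 from RefSeq, are printed 5′ to 3′ with the only match to the AP-1 motif in capitals.
IL11: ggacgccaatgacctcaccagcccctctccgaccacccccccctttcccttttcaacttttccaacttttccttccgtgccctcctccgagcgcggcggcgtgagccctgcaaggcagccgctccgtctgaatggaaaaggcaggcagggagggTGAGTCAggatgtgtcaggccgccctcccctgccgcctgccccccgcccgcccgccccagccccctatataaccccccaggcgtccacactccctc
The motif searched was TGANTCA on both strands, and the matched word begins at position -96, counted back from the start. Of 35116 RefSeq promoter windows of this length, 6.57% hold the motif. The STAT motif TTCNNNGAA, found in 6.57% of the windows, had no match before IL11, IL6ST, OSMR, IL6 or STAT3, nor before either annotated start of SOCS3. Sequence outside these windows was not searched, so STAT sites elsewhere near these genes are not shown to be absent. It matched before 2 of the 3 annotated starts of LIFR, as TTCCTTGAA at position -165 and as TTCATCGAA at position -182. A match is a description of the letters and not a binding site, and a link between the IL11 match and the AP-1 genes was not tested.

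Libraries held 57222381 to 72973100 counts, and levels are given as CPM, a share of each library’s counts, scaled by TMM, which matches libraries on the bulk of their genes. Both vehicle libraries differed from the treated ones in RNA classes, with 0.946% to 1.25% of counts on the nuclear RNA MALAT1 against 0.342% to 0.394%. Mitochondrial genes took 0.0255% to 0.0343% of vehicle counts and 0.0825% to 0.107% of treated counts. Fewer genes had any count in the vehicle libraries, 21500 and 21603 against 22905 to 23646 in treated ones. Their TMM factors were 0.915 and 0.917, against 1.00 to 1.04 in treated libraries. Whether this bears on genes at or near 0 counts in vehicle was not tested. Summed markers of neural progenitors (10 genes) ran from 7570 to 7634 CPM in vehicle and from 4495 to 4951 CPM under treatment, and those of astrocytes (8 genes) from 9195 to 9422 CPM and from 4848 to 5585 CPM. The 10 neuron markers summed to 2040 to 2111 CPM in vehicle and to 1082 to 1701 CPM under treatment, and the 8 oligodendrocyte lineage markers to 929 to 930 CPM and to 431 to 618 CPM, with OLIG2, SOX10, MBP and MOG below 1 CPM in every library. The 10 mesenchymal and smooth muscle markers summed to 179 to 181 CPM in vehicle and 76.7 to 103 CPM under treatment, and the 8 endothelial ones to 47.6 to 51.6 CPM and 7.995 to 27.8 CPM. Of 12 markers of microglia and other immune cells, 11 were below 1 CPM in every library and 7 had no count at all; the sum was 6.26 to 8.20 CPM. The part of these differences in the results on the cytokine genes was not tested. Apart from the immune list, all these marker sums were lower in every treated library than in both vehicle libraries. CPM is a share of a library from pooled neurospheres. Fewer cells of a type, less RNA per cell and a different make-up of the whole library therefore cannot be told apart.

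Per kb of exon, the receptor chains and STAT3 were more abundant than the ligands, whereas SOCS3 was below LIF. The mean over all libraries was 59.4 CPM per kb for LIFR, 24.9 for STAT3, 21.2 for IL6ST and 7.21 for OSMR. LIF stood at 3.44, SOCS3 at 2.79, CLCF1 at 0.874 and IL11 at 0.636 CPM per kb. The libraries were made with a capture step, and how well it caught each gene was not measured. Levels of different genes are therefore compared only roughly, and small gaps such as that of LIF and SOCS3 are not read. For IL6, the founding member of the family, 3 counts in a library would have been 0.0409 to 0.0540 CPM, which bounds what its 0 counts allow, for counting error only.

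**Figure D1:**
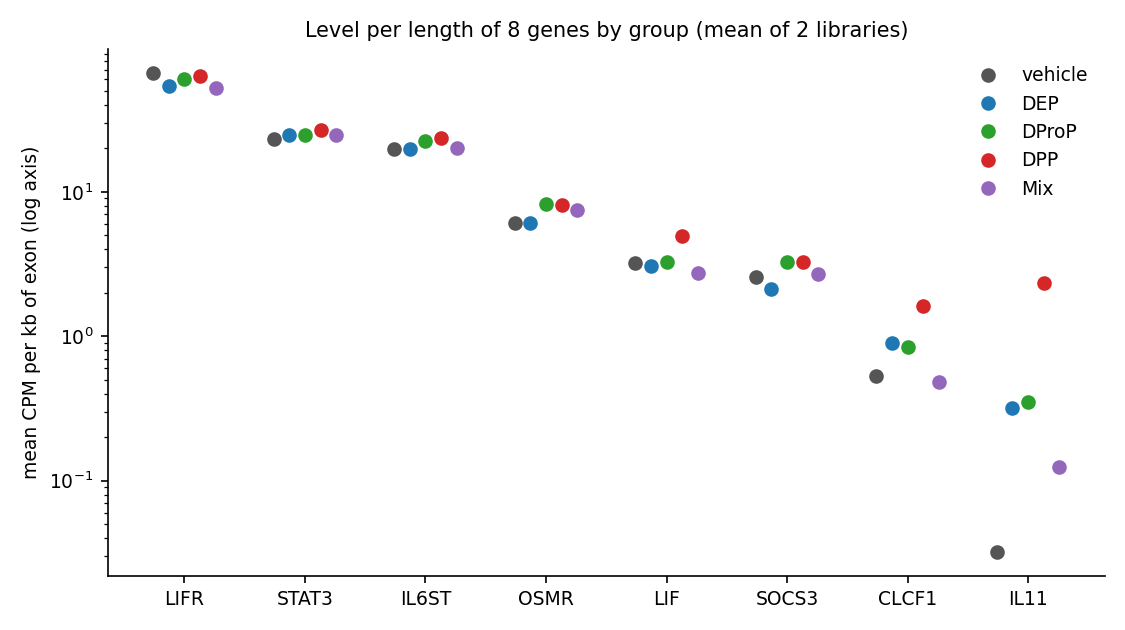
Mean CPM per kb of exon on a log axis for 8 genes, 1 point per group (mean of 2 libraries). LIFR is highest in every group, and the groups differ most at IL11, where the vehicle mean is 0.0322 and the DPP mean 2.36 CPM per kb.

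Among the ligands, IL11, a cytokine best known from bone marrow and fibrosis, differed most. It was at 0.172 and 0 CPM in the vehicle libraries, from 11 and 0 counts, and at 7.42 and 5.16 CPM under DPP, from 532 and 341 counts. DEP gave 1.35 and 0.340 CPM, DProP 0.894 and 0.970 CPM and Mix 0.382 and 0.287 CPM. Both DPP libraries were thus above all others, both Mix libraries were below both DProP libraries, and every treated library was above both vehicle libraries. Fewer genes had any count in the vehicle libraries, as given above, and the part of this in the low vehicle values of IL11 was not tested. The 2 DEP libraries differed from each other more than DEP did from DProP. The fold depends on which vehicle library is the base. Against the first, the group means were 36.6-fold higher under DPP, 5.41-fold under DProP, 4.92-fold under DEP and 1.94-fold under Mix. Against the second, with its 0 counts taken as 3, they were at least 116-fold, 17.3-fold, 15.7-fold and 6.19-fold higher.

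LIF, which acts through LIFR and gp130 on progenitors, was at 13.6 and 11.9 CPM in vehicle and at 20.0 and 19.2 CPM under DPP. The other treatments overlapped vehicle, at 12.4 and 11.8 CPM for DEP, 12.4 and 13.6 CPM for DProP and 9.51 and 12.3 CPM for Mix. DPP alone was separate from the vehicle libraries in the upward direction.

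CLCF1, a ligand of the ciliary neurotrophic factor receptor, was at 0.970 and 1.13 CPM in vehicle. DPP gave 2.99 and 3.39 CPM, DEP 1.79 and 1.75 CPM and DProP 1.84 and 1.49 CPM. Mix gave 0.792 and 1.12 CPM and overlapped vehicle, whereas the 3 single phthalates were above it and DPP was above the other 2.

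Of the receptor chains, IL6ST was at 191 and 176 CPM in vehicle, 204 and 212 under DProP, 216 and 223 under DPP, 183 and 188 under DEP and 193 and 182 under Mix. DProP and DPP were above both vehicle libraries, and DEP and Mix overlapped vehicle. OSMR, the chain that binds oncostatin M together with gp130, was at 46.0 and 41.2 CPM in vehicle and at 42.8 and 44.0 under DEP. It was at 59.8 and 58.4 CPM under DProP, 62.6 and 54.3 under DPP and 52.9 and 55.4 under Mix. These 3 groups overlapped in part among themselves and lay above vehicle and DEP without overlap.

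LIFR, the LIF receptor chain, was highest in vehicle, at 848 and 726 CPM. It was at 652 and 631 CPM under DEP and 650 and 599 under Mix, below both vehicle libraries. DProP gave 736 and 700 CPM and DPP 733 and 774 CPM, within or next to the vehicle range.

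STAT3 was at 202 and 208 CPM in vehicle and 247 and 228 under DPP. DEP gave 220 and 214 CPM, DProP 220 and 217 and Mix 219 and 216, so that all treated libraries were above vehicle and DPP was highest. SOCS3 was at 8.09 and 6.05 CPM in vehicle, 6.20 and 5.49 under DEP, 7.47 and 10.3 under DProP, 10.8 and 7.01 under DPP and 6.26 and 8.54 under Mix. Each SOCS3 group overlapped its neighbour in the order of means, and DEP, the lowest, lay below DProP, DPP and Mix without overlap.

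**Figure D2:**
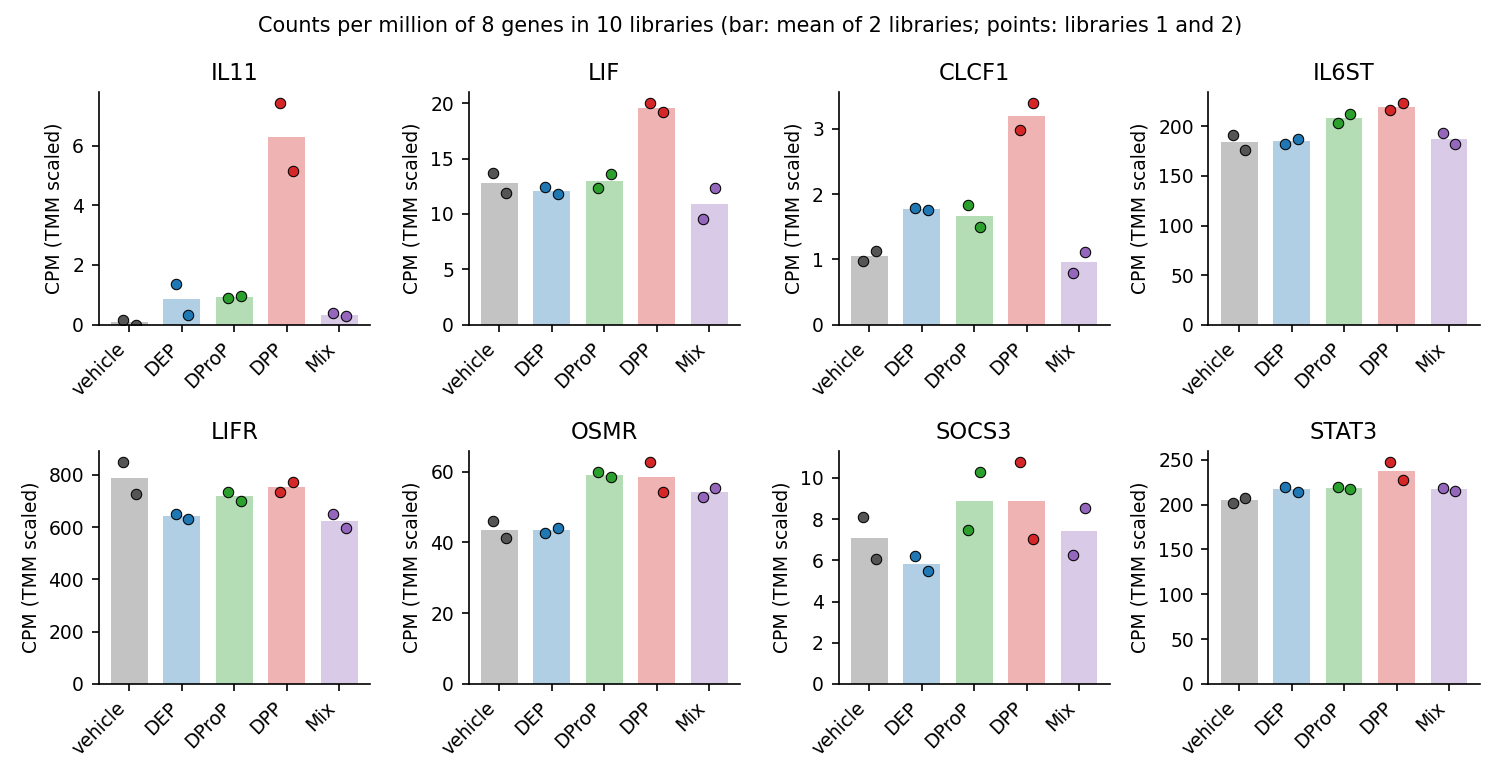
CPM (TMM scaled, linear axes from 0) of 8 genes, with bars for the mean of the 2 libraries of a group and points for each library. The DPP points of IL11 (7.42 and 5.16), LIF (20.0 and 19.2) and CLCF1 (2.99 and 3.39) are above those of all other groups, and for SOCS3 vehicle overlaps every treated group.

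Against vehicle, DPP differed in the most of these genes. A gene is called past the threshold here when edgeR's quasi-likelihood test, adjusted over all 19465 genes of the comparison, was below 5%. Under DPP, 6 of the 8 tested genes were past it upwards and 0 downwards, where 16.7% of all genes were called higher and 19.5% lower. The median log2 difference of the 8 genes was 0.38, against 0.017 over all genes. DProP gave 4 higher and 0 lower (14.7% and 17.5% of all genes), with a median of 0.25 against 0.017. DEP gave 2 higher and 1 lower (10.1% and 13.5%), with a median of 0.0019 against 0.0079. Mix gave 1 higher and 1 lower (9.71% and 10.7%), with a median of 0.046 against 0.017. With library size alone as the scaling, which moved the median of all genes by 0.14 to 0.18, the 8 genes gave 6, 5, 3 and 3 higher under DPP, DProP, DEP and Mix and 0 lower under each. The shares of the 8 genes cannot be read as evidence, because the genes were chosen with these comparisons known. The 4 comparisons also share the 2 vehicle libraries.

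For the ligands, the log2 difference of IL11 from vehicle was 6.08 ± 0.88 (SE) under DPP, 3.19 ± 0.95 under DEP, 3.33 ± 0.95 under DProP and 1.86 ± 1.06 under Mix, the last not called. The size of the IL11 difference rested on the first vehicle library, which holds all 11 vehicle counts. Without the second vehicle library the values were 5.18, 2.29, 2.43 and 0.96, and the calls for DEP and DProP were lost; the call for DEP was also lost without the first DEP library, at 1.88, and in 4 of the analyses with all libraries of both groups, and the call for DProP without either DProP library or without a filter on low counts. Without the first vehicle library the comparison is with a library at 0, so that only the bounds given above apply. LIF differed by 0.62 ± 0.12 under DPP, a 1.53-fold higher level, and by -0.08 ± 0.13 under DEP, 0.02 ± 0.13 under DProP and -0.23 ± 0.13 under Mix. CLCF1 differed by 1.60 ± 0.23 under DPP, 0.75 ± 0.23 under DEP, 0.66 ± 0.23 under DProP and -0.15 ± 0.24 under Mix. The calls of IL11, LIF and CLCF1 under DPP were kept in every one of 14 alternative analyses. Those of CLCF1 were lost in 5 of 14 under DEP and in 9 of 14 under DProP, in both cases without any 1 of the libraries compared and with DESeq2, and under DProP also in other analyses with all libraries.

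For the receptors, OSMR differed from vehicle by 0.44 ± 0.08 under DProP, 0.42 ± 0.08 under DPP and 0.31 ± 0.08 under Mix, all called, and by -0.01 ± 0.08 under DEP. The call under Mix was lost without the second vehicle library or either Mix library and with a correction for GC content and length, whereas the calls under DProP and DPP were kept in all 14 alternatives. IL6ST was called under DPP (0.26 ± 0.06) and DProP (0.18 ± 0.06), and the first was lost without the second vehicle library. The second was lost in 6 of 14 alternatives, among them those without the second vehicle or either DProP library. LIFR was called lower under DEP (-0.30 ± 0.08) and Mix (-0.34 ± 0.08), and not under DProP (-0.13 ± 0.08) or DPP (-0.06 ± 0.08), although DProP was called lower without the second vehicle library and with the GC and length correction. The lower LIFR calls were lost without the first vehicle library, either DEP library or the second Mix library, and when library size alone scaled the counts.

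STAT3 was called under DPP, at 0.21 ± 0.06, and the call was lost without the first vehicle or the first DPP library. Its differences under the other treatments were 0.08 to 0.09 and were called only with library size alone as the scaling. SOCS3 was called in no comparison with vehicle, at -0.28 ± 0.24 for DEP, 0.33 ± 0.24 for DProP, 0.33 ± 0.24 for DPP and 0.06 ± 0.24 for Mix. The interval of SOCS3 under DPP ran from -0.20 to 0.86, so that a rise of that size is not shown to be absent.

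**Figure D3:**
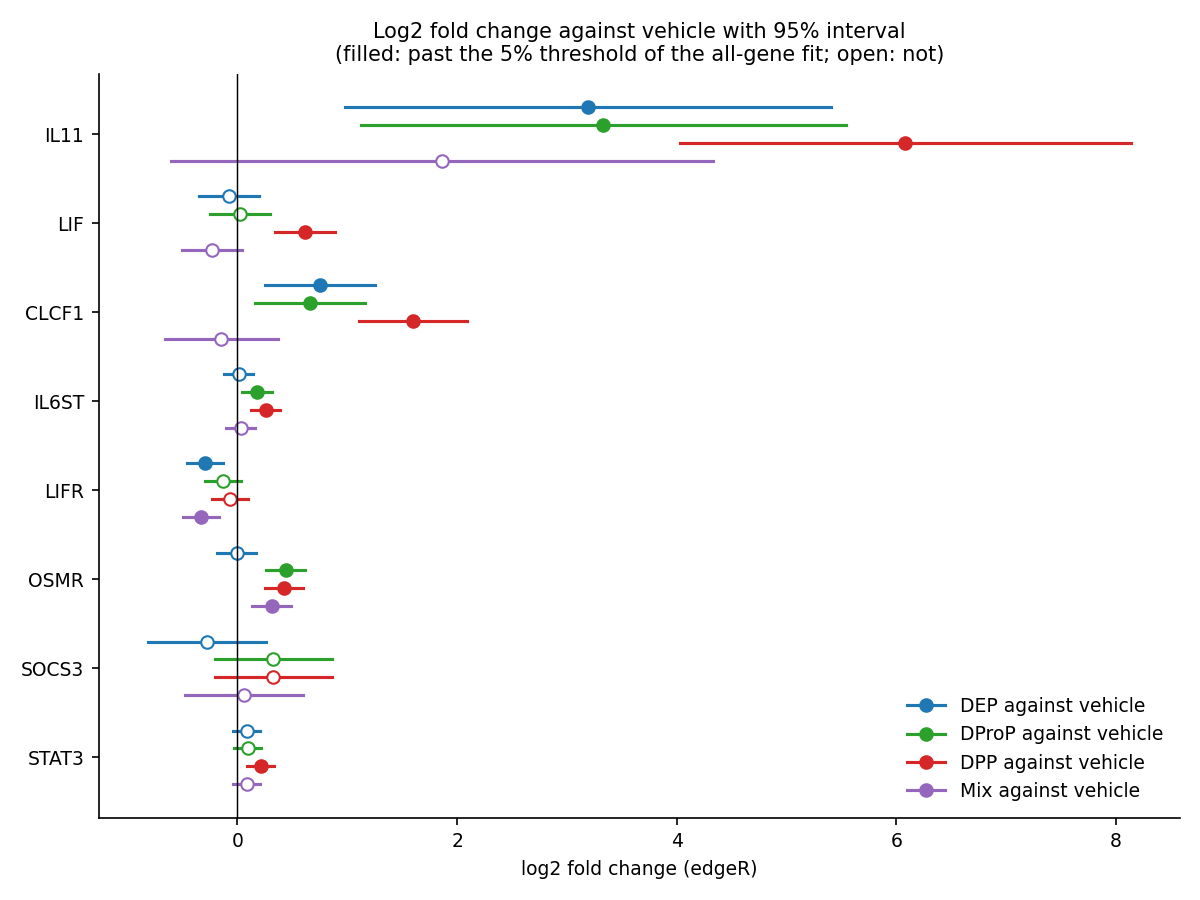
Log2 fold change against vehicle for 8 genes and 4 treatments, with lines for the 95% interval and filled points where the all-gene fit passed its 5% threshold. The IL11 intervals are the widest (4.03 to 8.13 for DPP), and the DPP points of LIF, CLCF1, IL6ST, OSMR and STAT3 are filled on the positive side.

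The treatments were also compared with one another at the same labelled dose and time, in 6 pairs. For Mix, the labels do not say whether this dose is the total or that of each compound. The pairs with Mix are therefore not known to match in dose per compound, and their differences are not read as differences at equal exposure. DEP carries ethyl esters, and DProP carries n-propyl esters if its abbreviation has the usual meaning. Between them, 1 of 8 genes was called, OSMR, at 0.44 ± 0.08 higher under DProP, where 0.390% of all genes were called higher and 0.134% lower. The IL11 difference was 0.14, with an interval from -1.44 to 1.72, and that of CLCF1 -0.09, from -0.57 to 0.39. These intervals do not show that the 2 compounds act alike. The OSMR call was lost when any 1 of the 4 libraries was left out.

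DPP against DEP gave 2 genes higher and 0 lower (1.36% and 1.58% of all genes), LIF at 0.70 ± 0.12 and OSMR at 0.43 ± 0.08. Both DPP libraries were above both DEP libraries in all 8 genes. The share of all genes separated in this way is not given, so that this count has no background beside it. IL11 was 2.89 ± 0.66 higher (interval 1.36 to 4.42) and CLCF1 0.85 ± 0.22, and neither was called. IL11 was called in 4 of 15 alternatives, without the first DEP library among them, and CLCF1 in 4. Without the first DEP library LIF and OSMR were not called. The LIF call was also lost without the second DEP or second DPP library, and the OSMR call without the second DEP or first DPP library.

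DPP against DProP gave no call among the 8 genes in either direction, where 0.144% and 0.118% of all genes were called higher and lower. LIF was 0.59 ± 0.12 higher, IL11 2.75 ± 0.65 and CLCF1 0.94 ± 0.22. The groups did not overlap in 5 genes, again with no all-gene share for such separation. The intervals, 0.32 to 0.86 for LIF and 0.47 to 1.41 for CLCF1, leave out 0 before the adjustment over all genes. IL11 was called with limma-voom and when only the 2 groups were fitted, and LIF with the stricter filter and DESeq2.

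Mix was lower than DPP in 5 of 8 genes and higher in 0 (6.82% and 10.4% of all genes). The differences were -4.22 ± 0.73 for IL11, -0.85 ± 0.13 for LIF, -1.75 ± 0.23 for CLCF1, -0.23 ± 0.06 for IL6ST and -0.27 ± 0.08 for LIFR. Those of LIF and CLCF1 were called in all 15 alternatives. The IL11 call was lost without either Mix library, the IL6ST call without either DPP library or the second Mix library, and the LIFR call without any 1 of the 4.

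Mix against DEP gave 1 gene higher, OSMR at 0.32 ± 0.08, and 0 lower (2.85% and 1.02% of all genes), and that call was lost in 9 of 15 alternatives. Mix against DProP gave none (4.36% and 2.53% higher and lower). Both Mix libraries were below both DProP libraries in 6 genes, a count that also has no all-gene share beside it. Of these, CLCF1 differed most beside its error, at -0.80 ± 0.23, with an interval from -1.30 to -0.30, and it was called with the stricter filter and with the GC and length correction.

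**Figure D4:**
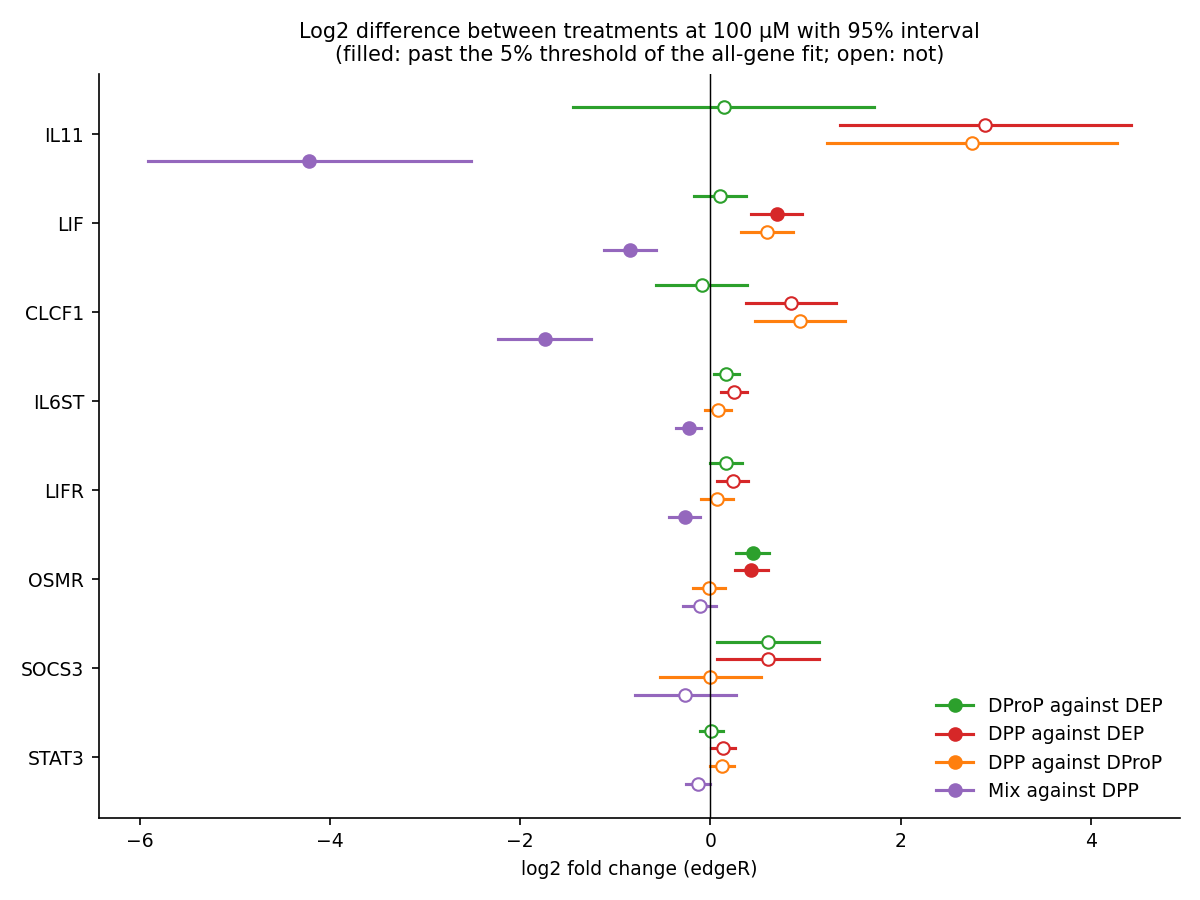
Log2 differences between treatments for 8 genes in 4 of the 6 pairs, with 95% intervals and filled points where the all-gene fit passed its 5% threshold. Mix against DPP is filled on the negative side for IL11, LIF, CLCF1, IL6ST and LIFR, and DPP against DEP is filled for LIF and OSMR.

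Other ligands and receptors of the family were fitted in the same way, and their p-values are adjusted over all genes by edgeR's quasi-likelihood test. These genes and the pathway lists below were also chosen with earlier results of these data known. Their counts, beside the shares of all genes, are a description and not evidence. IL27, OSM, EBI3 and IL12RB1 had too few counts to be tested. IL11RA, the chain that binds IL11, was scarce and lower under DProP and DPP. It was at 0.720 and 1.22 CPM in vehicle, 0.472 and 0.464 under DProP and 0.419 and 0.50 under DPP. The change was -1.05 ± 0.32 under DProP (edgeR adjusted p = 0.028) and -1.08 ± 0.32 under DPP (edgeR adjusted p = 0.0221). Without the second vehicle library these became -0.62 and -0.65 and were not called, nor were they without either library of the treated group. Under DEP and Mix IL11RA was not called, with edgeR adjusted p-values of 0.139 and 0.288. CNTFR, IL6R, CNTF, CTF1 and IL27RA passed the threshold in none of the 4 comparisons with vehicle.

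Of 14 genes of Janus kinase and STAT signalling other than STAT3, 3 rose and 2 fell under DPP, 2 and 2 under DProP, 1 and 2 under DEP and 2 and 2 under Mix. At the shares of all genes given above, 14 genes would give 2.3 and 2.7, 2.1 and 2.4, 1.4 and 1.9, and 1.4 and 1.5, so that these counts are near the background. The medians were 0.0056, 0.011, 0.073 and 0.10. JAK1, the kinase most used by gp130, was at 91.1 and 93.6 CPM in vehicle and 122.6 and 122.9 CPM under DPP, a rise of 0.41 ± 0.07 (edgeR adjusted p = 0.000841). Under DProP, DEP and Mix it rose by 0.28, 0.25 and 0.23, and each of these calls was lost without the first vehicle library. STAT5A fell in all 4 comparisons, by 0.75 under DEP, 0.91 under DProP, 0.90 under DPP and 0.53 under Mix, the last lost without the second vehicle library or either Mix library and with DESeq2. With library size alone as the scaling, the counts were 6 and 1 under DPP, 4 and 1 under DProP, 5 and 1 under DEP and 6 and 0 under Mix.

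Among 14 tested inhibitors of this pathway, SOCS1 rose in all 4 comparisons with vehicle. SOCS1, a suppressor induced by cytokines, was at 0.626 and 0.900 CPM in vehicle, 3.48 and 3.72 under DEP and 3.46 in both DProP libraries. It was at 4.49 and 5.45 CPM under DPP and 1.64 and 2.87 under Mix, so that every treated library was above vehicle and the Mix libraries were lower than those of the single compounds. The rise was 2.71 ± 0.27 under DPP (edgeR adjusted p = 2.35e-05), 2.24 ± 0.27 under DEP, 2.18 ± 0.27 under DProP and 1.56 ± 0.28 under Mix (edgeR adjusted p = 0.00263). The list as a whole did not follow SOCS1: 3 rose and 6 fell under DPP, 3 and 2 under DProP, 1 and 1 under DEP and 1 and 0 under Mix, where the all-gene shares are those just given for 14 genes, with medians of -0.11, -0.045, -0.089 and 0.0041. SOCS2, a suppressor of growth hormone signalling, fell by 0.36 under DPP, a call lost without the second DPP library or with library size alone, and by 0.27 under DProP, lost without the first vehicle or second DProP library or with library size alone. With library size alone, 5 inhibitors rose and 0 fell under DPP, 5 and 0 under DProP, 4 and 0 under DEP and 6 and 0 under Mix.

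The list of 26 genes that STAT3 is known to switch on moved in both directions. It was chosen with earlier results known, so that its counts are a description only. Under DPP 11 rose and 5 fell (median 0.21), under DProP 7 and 2 (median -0.012), under DEP 3 and 4 (median -0.070) and under Mix 2 and 3 (median -0.025). The shares of all genes would give 4.3 and 5.1 of 26 under DPP, 3.8 and 4.5 under DProP, 2.6 and 3.5 under DEP and 2.5 and 2.8 under Mix, so that the counts under DEP and Mix are near the background. JUNB, an AP-1 factor, was at 12.3 and 10.7 CPM in vehicle and 32.5 and 34.9 CPM under DPP, a rise of 1.55 ± 0.14 (edgeR adjusted p = 1.62e-05), and it also rose under DProP, DEP and Mix, by 1.17, 1.07 and 0.89. CCND1, a cyclin of G1 phase, rose by 1.13 ± 0.11 under DPP, and IER3, an early response gene, by 1.20 ± 0.12. Under DProP they rose by 0.66 ± 0.11 and 0.37 ± 0.12. Under DEP, CCND1 and IER3 were at 0.12 ± 0.11 and 0.28 ± 0.12 and did not pass the threshold.

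GFAP, the intermediate filament of astrocytes, fell in all 4 comparisons, by 0.80 under DEP, 0.96 under DProP, 0.88 under DPP and 0.94 under Mix (edgeR adjusted p = 1.05e-05 under DPP). GFAP is itself among the 8 astrocyte markers whose sum, given above, was lower in every treated library, and the part of that difference was not tested. With library size alone, the split was 15 higher and 3 lower under DPP, 11 and 2 under DProP, 7 and 3 under DEP and 5 and 1 under Mix, so that the balance under DEP and Mix turned.

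Between treatments, 7 STAT3 targets were higher and 0 lower under DPP than under DEP (0.4 of 26 each way at the all-gene shares; median 0.32, against -0.0023 over all genes), among them CCND1 at 1.00 ± 0.11 (edgeR adjusted p = 0.00105) and IER3 at 0.92 ± 0.12, the latter lost without the second DEP library. Mix was lower than DPP in 11 and higher in 2 (1.8 and 2.7 at the all-gene shares; median -0.27, against -0.0070), with CCND1 at -1.14 ± 0.11 (edgeR adjusted p = 7.58e-05). DPP against DProP gave 1 call, IER3 at 0.83 ± 0.12, lost without either DProP library or the second DPP library.

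The JNK, p38 and AP-1 list of 13 genes had more increases than decreases in each comparison with vehicle. This list too was chosen with earlier results known, and its counts are not evidence. It had 7 higher and 0 lower under DPP, 6 and 1 under DEP, 4 and 1 under DProP and 4 and 1 under Mix, with medians of 0.21, 0.26, 0.18 and 0.11. The shares of all genes would give 2.2 and 2.5 of 13 under DPP, 1.3 and 1.8 under DEP, 1.9 and 2.3 under DProP and 1.3 and 1.4 under Mix. These counts became 11 and 0, 8 and 0, 9 and 1, and 6 and 0 with library size alone. FOSL1, an AP-1 subunit, was at 1.63 and 2.11 CPM in vehicle, 3.96 and 3.62 under DEP, 4.72 and 5.01 under DProP, 8.83 and 11.4 under DPP and 2.50 and 3.07 under Mix. FOSL1 rose by 2.44 ± 0.19 under DPP (edgeR adjusted p = 4.51e-06), 1.39 ± 0.19 under DProP and 1.03 ± 0.19 under DEP, and was at 0.58 ± 0.19 under Mix (edgeR adjusted p = 0.0501).

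FOSB, its relative, rose by 1.92 ± 0.24 under DPP, 1.71 ± 0.24 under DProP, 1.49 ± 0.24 under DEP and 0.99 ± 0.24 under Mix, the last lost without the first vehicle or second Mix library. JUN, the partner of FOS proteins, rose by 0.62 ± 0.07 under DPP (edgeR adjusted p = 5.42e-05) and by 0.23 ± 0.07 under DEP, the latter lost without either vehicle library or the first DEP library. Not all AP-1 genes rose: JUND, of the JUN family, was at -0.48 ± 0.09 under DProP (edgeR adjusted p = 0.00276). DPP was above DEP in 5 of the 13 genes and below in 0 (0.2 each way at the all-gene shares), with FOSL1 at 1.41 ± 0.18 (edgeR adjusted p = 0.0016), a call lost without the second DEP library. Mix was below DPP in 6 and above in 1 (0.9 and 1.4), with FOSL1 at -1.86 ± 0.18 (edgeR adjusted p = 6.68e-05).

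**Figure D5:**
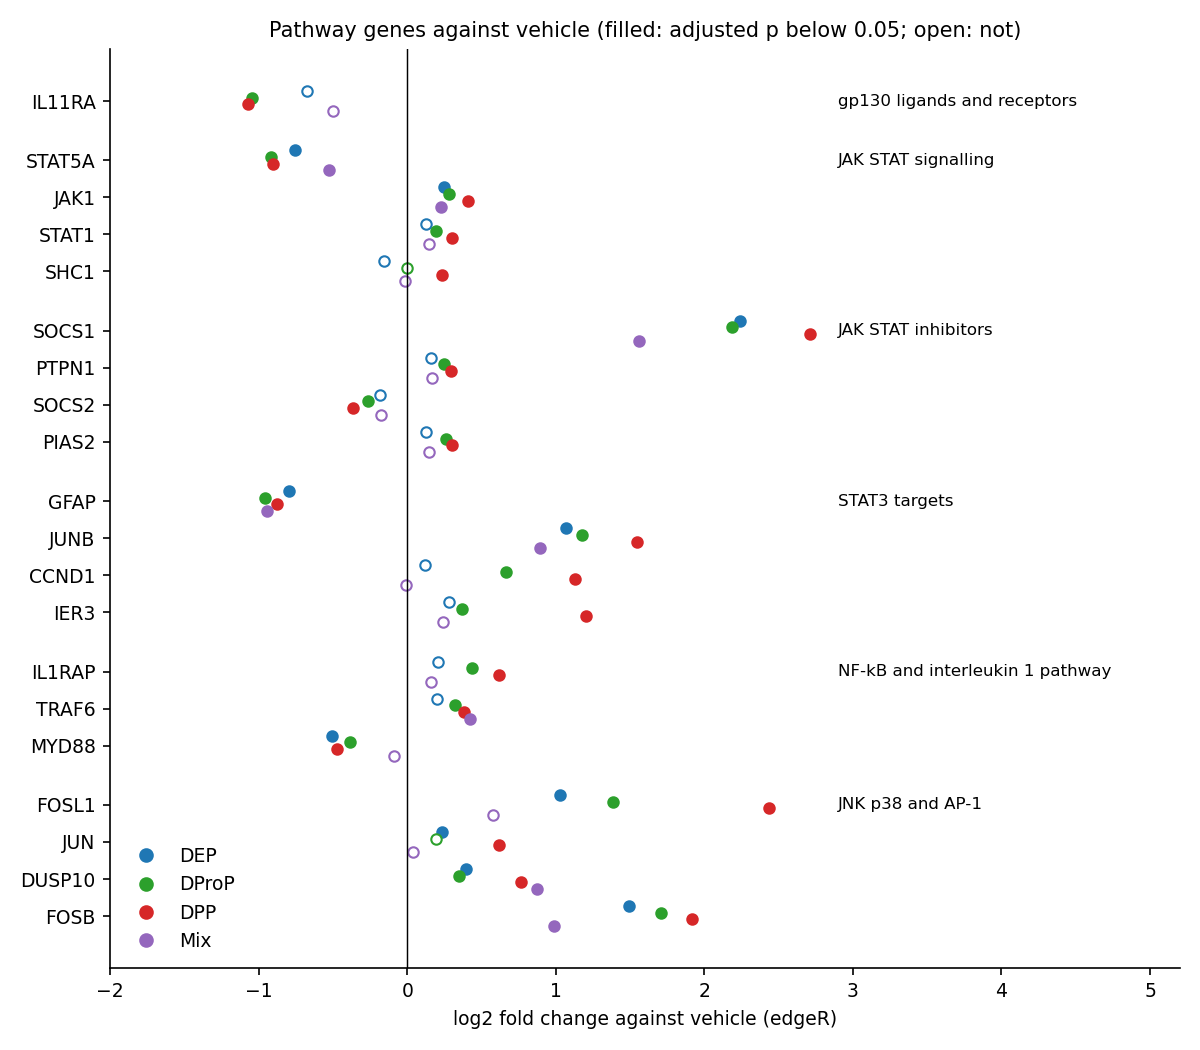
Log2 fold change against vehicle of some pathway genes from 6 lists, with 1 point per treatment, filled where the edgeR adjusted p was below 0.05. Shown are up to 4 genes per list, those with the smallest p past the threshold under DPP and no overlap with vehicle. PTGS2 is left out, and other genes past the threshold are not drawn. DPP is furthest to the right for SOCS1 (2.71), JUNB (1.55), CCND1 (1.13), IER3 (1.20) and FOSL1 (2.44), and GFAP is to the left in all 4 treatments.

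Genes of the NF-kB and interleukin 1 pathway, which also drives IL6 and LIF in many cells, were tested for 18 of 27. IL1A, IL1B, IL1RN, CXCL1, CXCL2, CXCL3, CXCL8, CCL20 and TNF had too few counts. Under DPP 4 rose and 6 fell, under DProP 3 and 5, under DEP 1 and 4 and under Mix 3 and 2, with medians of -0.073, -0.074, -0.17 and -0.074. The shares of all genes would give 3.0 and 3.5 of 18, 2.6 and 3.1, 1.8 and 2.4, and 1.7 and 1.9. With library size alone these counts were 5 and 3, 4 and 1, 4 and 3, and 5 and 1. PTGS2, the inducible cyclooxygenase, had 49 and 70 counts under DPP, 4 and 0 under Mix and 0 in the vehicle, DEP and DProP libraries. Counting 3 per library as the floor, it was at least 17.3-fold higher under DPP than in vehicle and 20.7-fold higher than under DEP. The call against vehicle was lost with DESeq2, and that against DEP without either DEP library. Between DPP and DProP, PTGS2 was not called (edgeR adjusted p = 0.0549). IL1RAP, the accessory chain of the interleukin 1 receptor, rose by 0.61 ± 0.10 under DPP and 0.44 ± 0.10 under DProP. MYD88, an adaptor of that receptor, fell by 0.48 ± 0.09 under DPP, 0.51 ± 0.09 under DEP and 0.39 ± 0.09 under DProP, the last lost without the first DProP library or with library size alone. Under Mix it was at -0.09 ± 0.09 and did not pass the threshold.

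The genes most like LIF, IL11 and SOCS3 over the 10 libraries were sought among 13902 genes by Pearson's r of log2 CPM, as a description. The 10 points are 5 pairs of libraries of a group and share their scaling. LIF was most like TMEM158 (r = 0.953), TFPI2 (0.950), MAP2K3 (0.941) and SLC12A8 (0.936). SLC12A8 shows the shared shape, at 4.15 and 3.58 CPM in vehicle, 11.4 and 11.2 under DPP and 3.55 to 4.88 in the other 6 libraries. IL11 was most like PIGA (0.970), MPC1 (0.961), TXNL4A (0.959), ORMDL1 (0.956) and PIGN (0.954). SOCS3 was most like COQ8A (0.931), BCL6 (0.905), SHISAL1 (0.897), CCNE1 (0.888) and GINS2 (0.869).

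Some of the 9 genes overlap others in the annotation: LIF with LIF-AS1 and LIF-AS2, CLCF1 with LOC100130987, LIFR with LIFR-AS1, MIR3650 and LOC105374735, OSMR with RICTOR, SOCS3 with SOCS3-DT and IL6 with IL6-AS1. Whether the counting used strand is not given in the sources used, so that reads of these pairs cannot be told apart. IL11, IL6ST and STAT3 had no such overlap.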

How the data were processed

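RNA from 10 libraries, 5 groups of 2, was measured after capture with the SureSelect RNA Direct kit, per the labels' protocols. The authors deposited unscaled, unfiltered read counts for each NCBI gene identifier. The submitters' processing notes name the build GRCh38 and the tools HISAT2 2.1.0, Trimmomatic 0.38, StringTie 2.1.3b, FastQC, R 4.3.2 and edgeR 4.0.9. What each did, the annotation used and the strand setting are not given in the sources.

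The 9 genes and the pathway lists were chosen with earlier results of these data known. Counts were fitted with edgeR 4.0.16 in R 4.3.3 (TMM factors, filterByExpr by group, robust quasi-likelihood, 1 mean per group, 5 residual degrees of freedom, prior count 0.125). This gave 4 comparisons with vehicle and 6 between treatments. P-values were adjusted by Benjamini and Hochberg within a comparison over 19465 genes, threshold 0.05. Standard errors of log2 fold changes are their size over the square root of F. An exact test of 1 gene over 2 and 2 libraries cannot pass the threshold, so tests rest on the pooled spread (common biological coefficient of variation 9.40%, 95% intervals reaching a median of 0.26 to each side). Symbols were those of the count table. Identifiers were matched to RefSeq (44698 of 46427), from which the promoters came, and promoter sequence was matched for 7 of the 9 genes, all but LIF and CLCF1. Exon lengths and GC content came from a GENCODE annotation through the gene identifiers, for 16749 of the 19465 tested genes. Of the lists' genes, up to 4 per list and comparison with vehicle, and 2 between treatments, were eligible for naming: those with the smallest p past the threshold and no overlap of the 2 groups. A part of them is named, some items are not reported here, and values of the same genes in other comparisons were added after the values were seen.

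The alternatives were limma-voom (limma 3.58.1), DESeq2 1.42.0, factors by relative log expression, scaling by library size alone, testing without a filter, a filter of 1 CPM in 2 libraries, a fit of just the groups compared, a replicate block, and leaving out each library in turn, in which case the remaining library takes its spread from the other groups. Chosen after seeing the data were a lowess correction (span 0.3) for GC content and length, a prior count of 2, and a fit with neither vehicle library. The scripts were tested on simulated data.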

Additional observations from a re-analysis of the deposited data

How the results depend on the processing

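Over the alternatives, the differences of the 8 tested genes kept their side of the threshold in 1061 of 1168 cases, 72 lost a call and 35 gained one. No called difference changed sign, but in 57 of the 1061 a difference that was not called did. For the other pathway genes named, 1386 of 1579 cases kept direction and call, 192 lost a call and 1 reversed: TYK2 in DProP against vehicle, at 0.037 with the GC and length correction. With library size alone, the median of all genes moved by 0.16, 0.18, 0.16 and 0.14 on the log2 scale for DEP, DProP, DPP and Mix against vehicle. The calls then split into 4794 higher and 1259 lower for DEP (1964 and 2637 with TMM), 5850 and 1699 for DProP (2864 and 3402), 5820 and 2200 for DPP (3256 and 3793) and 4605 and 1020 for Mix (1891 and 2079). Between treatments the split also moved for DPP against DProP (28 and 23 with TMM, 29 and 36 with library size alone, 53 and 65 with the GC and length correction), for Mix against DProP (849 and 493, then 667 and 601) and for Mix against DEP (554 and 198, then 640 and 464 with the correction). Over all settings, calls in DProP against DEP ran from 8 to 332 higher and 1 to 280 lower, in DPP against DEP from 34 to 545 and 46 to 594, in DPP against DProP from 4 to 185 and 1 to 214, in Mix against DEP from 31 to 1047 and 2 to 555, in Mix against DProP from 280 to 1139 and 102 to 815, and in Mix against DPP from 952 to 2225 and 546 to 2041; the lowest counts came from leaving out a library, which leaves fewer samples.

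Counts among the 8 genes that moved by over 1.5 times, or from or to 0, were as follows, and the cause was not tested. Smaller moves include Mix against DPP, with 6 lower with the correction, and DPP against DEP, with 3 higher with library size alone. DEP against vehicle had 1 higher with no filter, the stricter filter, limma-voom, DESeq2 and the fit of the 2 groups, and 0 lower with library size alone. DProP against vehicle had 1 higher with no filter, 2 with the fit of the 2 groups, and 1 lower with the GC and length correction. Mix against vehicle had 3 higher and 0 lower with library size alone and 0 higher with the correction. DPP against DEP had 4 higher with the stricter filter, limma-voom, DESeq2, the fit of the 2 groups and without both vehicle libraries, and 5 with the correction. DPP against DProP had 1 higher with the stricter filter, limma-voom, DESeq2 and the fit of the 2 groups. Mix against DEP had 0 higher with relative log expression factors, library size alone, limma-voom and the correction, and 1 lower with the stricter filter, the fit of the 2 groups and the correction. Mix against DProP had 1 lower with the stricter filter, DESeq2 and the fit of the 2 groups, and 2 with the correction.

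Leaving out 1 library at a time gave 0 to 1 higher and 0 to 1 lower for DEP against vehicle, 1 to 3 higher and 0 to 1 lower for DProP, 5 to 6 higher for DPP and 0 to 1 higher and 0 to 1 lower for Mix. Between treatments it gave 0 to 0 higher for DProP against DEP, 0 to 1 for DPP against DEP, 0 to 0 for Mix against DEP and 2 to 3 lower for Mix against DPP.

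The replicate numbers gave no sign of pairing: between groups, same-numbered deviations correlated over genes at -0.046 to 0.047 (10 pairs of groups). With the replicate number as a block, DProP against vehicle had 2 of the 8 genes higher, where CLCF1 and IL6ST were not called, Mix against DEP had 0, where OSMR was not called, and DPP against DEP had 3, where IL11 was called. The block changed no other call of the 8 genes. IL6 had no count, and the values of IL11 in vehicle rest on 11 and 0 counts.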

Other observations

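Mix differed from the single phthalates in some signalling genes outside the gp130 family itself. GAB1, an adaptor that links receptors to the MAP kinase pathway, was at 210 and 197 CPM under Mix and at 129 to 144 CPM in the 6 libraries of the single phthalates. It was 0.56 ± 0.07 higher on the log2 scale under Mix than under DEP, 0.57 ± 0.07 higher than under DProP and 0.63 ± 0.07 higher than under DPP (edgeR adjusted p = 0.00201, 0.0011 and 0.000165). The first of these calls was lost without the first DEP library. These comparisons share the Mix libraries.

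DUSP10, a phosphatase of JNK and p38, rose in all 4 comparisons with vehicle, by 0.87 ± 0.09 under Mix, 0.77 ± 0.09 under DPP, 0.39 ± 0.09 under DEP and 0.34 ± 0.09 under DProP. The last 2 calls were lost without the first vehicle library, and also without the first library of DEP or of DProP.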
